A study of Mus musculus with 4 samples.

Results

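Malat1 and the other long noncoding RNAs that the deposited table lists as Neat1, Gas5 or with a name starting in Snhg were followed across 4 RNA sequencing libraries of mouse myoblasts. They were picked by name, and the imprinted RNA H19 was left out. Malat1 was picked because its level in these 4 libraries was already known to stand out, so its levels are given as a description and no test rests on them. The rule found 9 of the 3760 genes in the table: Malat1, Neat1, Gas5, Snhg1, Snhg3, Snhg5, Snhg8, Snhg12 and Snhg18. The table held 30 further noncoding RNAs, listed under other names, which serve for comparison.

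Malat1 is an abundant nuclear RNA that gathers in speckles, the compartments where splicing factors are stored. Neat1, transcribed next to it, is the RNA scaffold of paraspeckles, nuclear bodies that hold RNA-binding proteins such as Sfpq and Nono. Malat1 and the long form of Neat1 end without the usual poly(A) tail: RNase P cuts the transcript, and a triple helix of U-rich and A-rich stretches protects the new 3′ end. Gas5 and the Snhg genes are hosts of small nucleolar RNAs (snoRNAs), which guide the modification or processing of ribosomal and other RNAs and are cut out of the introns. The spliced exons of several such hosts are degraded by nonsense-mediated decay, and some hosts start, like ribosomal protein mRNAs, with a run of pyrimidines that ties them to growth conditions.

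The cells were cultured myoblasts from skeletal muscle of adult C57BL/6 mice, which the labels call twist2+. All 4 groups had been infected with a retrovirus for 24 h and then kept for 24 h in growth medium. In the Twist2 groups the virus carried Twist2-IRES-GFP, so the cells expressed the transcription factor Twist2 together with green fluorescent protein (GFP), and in the GFP groups it carried GFP alone. At day 5 cells had spent 5 days in differentiation medium with 2% horse serum, and at day 0 they were harvested in growth medium with 20% serum. The groups were thus Twist2 at day 5, Twist2 at day 0, GFP at day 5 and GFP at day 0, with 1 library each. None of the differences below could be checked against replicates, so library and condition cannot be told apart.

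The libraries held between 9235281 and 12362290 reads. Twist2 stood at 674 CPM in Twist2 cells at day 5 and 1438 CPM at day 0, against 0 reads in GFP cells at day 5 and 1 read at day 0, so Twist2 reads matched the virus named for each library, but the name twist2+ did not describe a measured level in the GFP cells. The word control also stands in the descriptions of all 4 samples, those infected with Twist2 included, so groups were taken from the virus named. Of 10 myoblast and muscle markers 8 were listed, with a summed level of 10884 CPM in Twist2 cells at day 5 and 2338 CPM at day 0, against 41782 CPM in GFP cells at day 5 and 5003 CPM at day 0. Myh3, the embryonic myosin and one of these markers, had 2528 CPM in Twist2 cells and 27313 CPM in GFP cells at day 5. The proliferation marker Mki67 had 22.0 CPM in Twist2 cells at day 5 and 411 CPM at day 0, against 0.433 CPM in GFP cells at day 5 and 248 CPM at day 0. The 2 listed fibroblast markers, Ly6a and Dcn, did not move together. Ly6a had 3.32 CPM in Twist2 cells at day 5 and 32.9 CPM at day 0, against 0 and 11.0 CPM in GFP cells at day 5 and day 0, whereas Dcn had 64.6 CPM in Twist2 cells at day 5 and 10.6 CPM at day 0, against 1.19 and 1.95 CPM in GFP cells at day 5 and day 0. Their sum was 67.9 CPM in Twist2 cells at day 5 and 43.5 CPM at day 0, against 1.19 CPM in GFP cells at day 5 (1 marker at 0) and 12.9 CPM at day 0. The 2 listed smooth muscle and pericyte markers, Acta2 and Rgs5, summed to 5055 and 198 CPM in Twist2 cells at day 5 and day 0, against 7948 and 413 CPM in GFP cells at day 5 and day 0. Acta2 made up most of these sums, and Rgs5 went the other way between viruses at day 5, with 4.69 CPM in Twist2 cells and 0.108 CPM, 1 read, in GFP cells. No endothelial, blood, glial or fat cell marker was among the listed genes. These markers moved with the groups, and their part in the results below was not tested. In bulk RNA, fewer cells of a type and less RNA per cell cannot be told apart.

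The 3′ ends of Malat1 and Neat1 are shown because they are what sets these RNAs apart from ordinary mRNAs. They were read from the GENCODE M21 transcripts of GRCm38, on the minus strand of chromosome 19, and the capitals mark 2 U-rich motifs (written with T) and the A-rich end. The first line is chr19:5795982-5796079, the second chr19:5795924-5795981 and the third chr19:5824708-5824807.
Malat1 3′ end: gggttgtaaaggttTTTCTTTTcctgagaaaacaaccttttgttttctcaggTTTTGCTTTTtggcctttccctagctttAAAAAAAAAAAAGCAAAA
mascRNA: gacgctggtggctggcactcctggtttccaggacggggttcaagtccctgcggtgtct
Neat1 3′ end: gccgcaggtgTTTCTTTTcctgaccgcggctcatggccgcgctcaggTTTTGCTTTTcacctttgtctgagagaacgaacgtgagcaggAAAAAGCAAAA

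The second line, 58 bases long, follows directly after the Malat1 end and is the tRNA-like fragment called mascRNA that RNase P releases. TTTCTTTT, searched on the transcript's own strand, occurs in the last 400 bases of 4.49% of the 122312 annotated transcripts that are at least that long. TTTTGCTTTT, searched in the same way, occurs in 0.298% of them, and an A run of 5 or more followed by GCAAAA in 0.117%. All 3 in this order, with gaps of at most 60 bases, occurred in 2 transcripts, which were those of Malat1 and Neat1. The motifs were chosen by looking at these ends, so this count describes them and tests nothing. Whether the libraries were made from poly(A)-selected RNA or from RNA depleted of rRNA is not given in the sources used here. How far a library captured these ends therefore was not tested.

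Malat1 (chr19:5795690-5802672, minus strand, GRCm38) had 236 CPM in Twist2 cells at day 5 and 1317 CPM at day 0, against 3610 CPM in GFP cells at day 5 and 1340 CPM at day 0. These levels rested on 2918, 14572, 33341 and 13054 reads in the same order. The Twist2 library at day 5 was thus the lowest of the 4, the GFP library at day 5 the highest, and the day 0 libraries lay close together in between. Highest and lowest differed by 15.3-fold.

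In differentiation medium Malat1 was lower in Twist2 cells and higher in GFP cells than at day 0. The log2 ratio of CPM + 1, day 5 over day 0, was -2.47 in Twist2 cells, with a 95% counting interval of -2.54 to -2.42, which is 5.56-fold lower. In GFP cells it was 1.43 (1.40 to 1.46), which is 2.69-fold higher. The intervals here and below are exact binomial intervals on the ratio of the reads, and they cover counting error only. Twist2 cells minus GFP cells, the responses differed by -3.90 on the log2 scale, and 5 of 3649 genes, Malat1 included, had a difference that low or lower.

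Between viruses, Malat1 differed at day 5 and hardly at day 0. At day 5 the log2 ratio of Twist2 to GFP cells was -3.93 (-3.99 to -3.88), or 15.2-fold lower, and among 3437 genes only Mef2c (-4.59), a muscle transcription factor, had a lower ratio. At day 0 the log2 ratio was -0.03 (-0.06 to 0.01). Its sign at day 0 depended on scaling, with values from -0.081 to 0.22 over the alternatives tried. Twist2 cells at day 5 also lay below GFP cells at day 0, by a log2 ratio of -2.50 (-2.56 to -2.45).

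**Figure D1:**
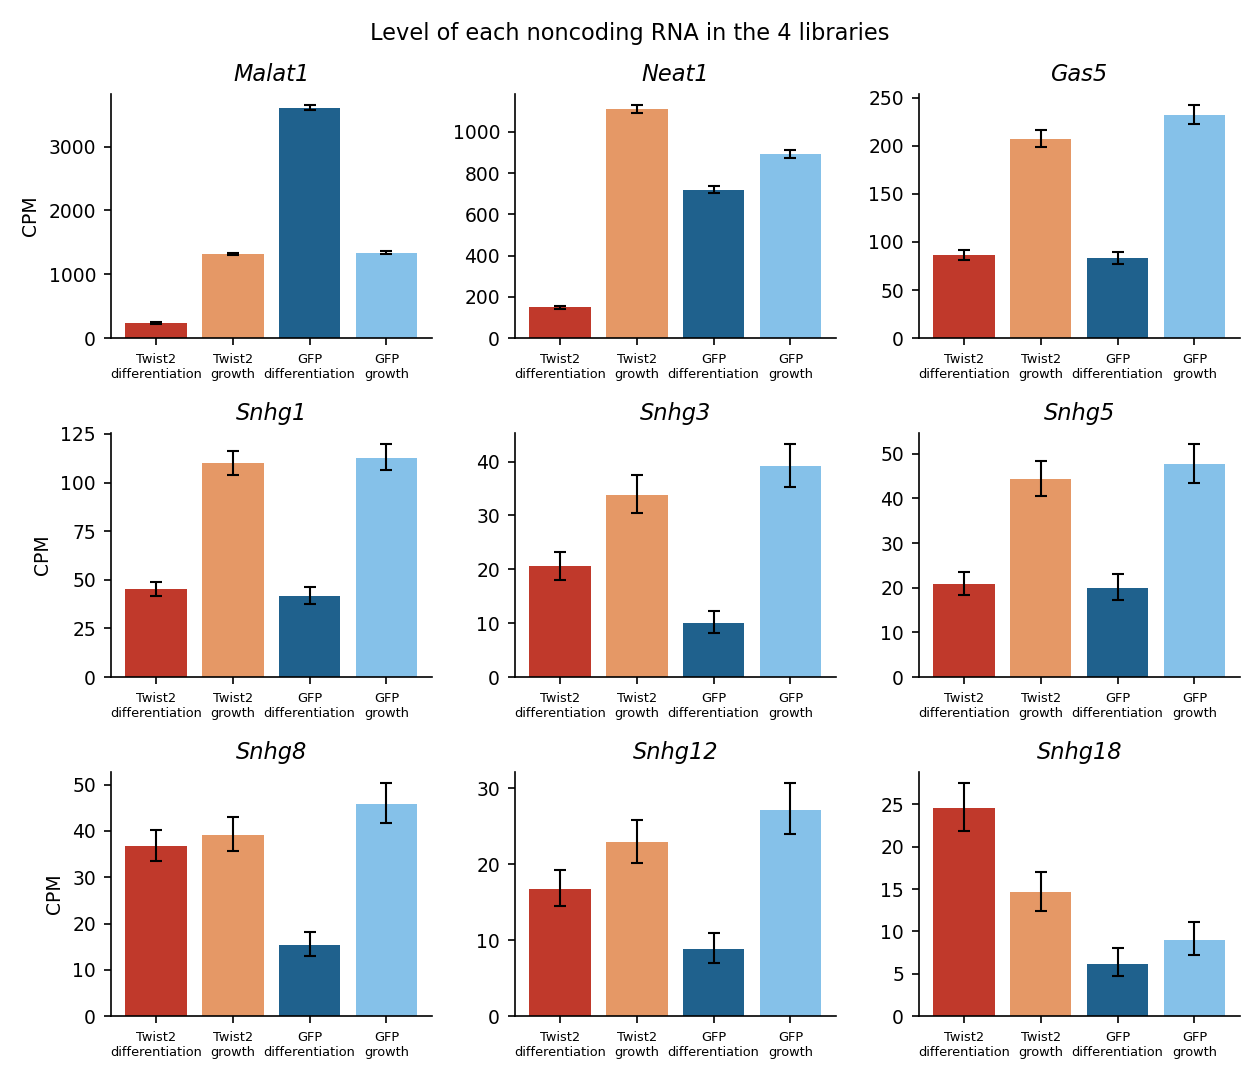
Level in CPM (vertical axes, each starting at 0 with its own range) of the 9 noncoding RNAs in the 4 libraries, differentiation meaning day 5 and growth meaning day 0. Bars are single libraries and the lines on them 95% counting intervals. Malat1 stands at 236 CPM in Twist2 cells at day 5 and 3610 CPM in GFP cells at day 5, while Gas5, Snhg1 and Snhg5 are low at day 5 with either virus.

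Neat1 (chr19:5824708-5845478, minus strand) lies 22035 bp from Malat1. It had 149 CPM in Twist2 cells at day 5 and 1110 CPM at day 0, against 720 CPM in GFP cells at day 5 and 891 CPM at day 0. As for Malat1, the Twist2 library at day 5 was the lowest, but the other 3 lay within a narrower range and the highest was Twist2 at day 0. The log2 ratio of day 5 to day 0 was -2.89 (-2.97 to -2.83) in Twist2 cells and -0.31 (-0.35 to -0.26) in GFP cells. The GFP value ran from -0.53 to 0.49 over the alternatives, so its direction depended on scaling. Twist2 cells minus GFP cells, the responses differed by -2.58, a value reached by 27 of 3649 genes. The deposited table keeps only genes at least 2-fold from GFP cells at day 0. Neat1 was listed only through Twist2 cells at day 5 (log2 ratio -2.57), so a 2-fold difference there was given in advance.

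At day 5 the log2 ratio of Twist2 to GFP cells was -2.26 (-2.35 to -2.20) for Neat1, which 106 of 3437 genes reached or passed. At day 0 it was 0.32 (0.28 to 0.36). Malat1 and Neat1 were thus both low in the Twist2 library at day 5, and only Malat1 was more than 2-fold higher in the GFP library at day 5 than at day 0.

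The ratio of the 2 RNAs within a library does not depend on how libraries are scaled. Malat1 had 1.58 reads per Neat1 read in Twist2 cells at day 5 (1.49 to 1.68) and 1.19 at day 0 (1.16 to 1.21), against 5.01 in GFP cells at day 5 (4.88 to 5.15) and 1.5 at day 0 (1.46 to 1.54). This ratio, which is not corrected for length, stood apart in the GFP library at day 5 and not in the Twist2 library at day 5. Against Gas5, by contrast, Malat1 moved in both day 5 libraries, with 2.72 reads per Gas5 read in Twist2 cells at day 5 and 6.34 at day 0, against 43.5 in GFP cells at day 5 and 5.76 at day 0. Neat1 had 1.72 reads per Gas5 read in Twist2 cells at day 5 and 5.35 at day 0, against 8.67 in GFP cells at day 5 and 3.83 at day 0.

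**Figure D2:**
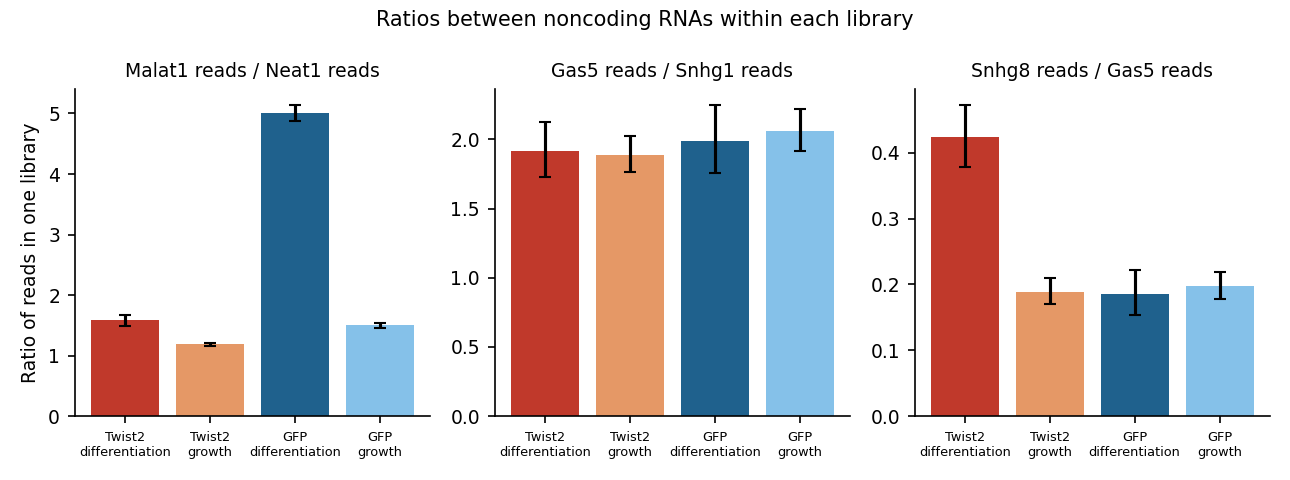
Ratio of the reads of 2 noncoding RNAs within each library (vertical axes from 0), with differentiation meaning day 5 and growth meaning day 0. Bars are single libraries with 95% counting intervals. Malat1 to Neat1 is 5.01 in GFP cells at day 5 and between 1.19 and 1.58 in the other libraries, Gas5 to Snhg1 is between 1.89 and 2.06 in all 4, and Snhg8 to Gas5 is 0.424 in Twist2 cells at day 5 and between 0.185 and 0.197 elsewhere.

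Long transcripts had lower ratios of Twist2 to GFP cells than short ones at day 5 and, over a narrower range, at day 0. Across 5 groups of genes by the length of the longest annotated transcript, the median log2 ratio of Twist2 to GFP cells at day 5 was 0.32, 0.18, -0.05, -0.37 and -0.89 from shortest to longest. At day 0 it was 0.097, 0.0049, -0.039, -0.18 and -0.36 in the same order, with Malat1 at -0.03. Malat1 (6983 bases) and Neat1 (20771 bases) belong to the longest group, which starts at 6230 bases. Within that group 2 of 704 genes, Malat1 included, were at or below Malat1 at day 5 and 46 at or below Neat1. For the Twist2 response to differentiation medium the group medians ran from 0.48 to -0.52, and 25 of 729 genes of the longest group were at or below Malat1. The part of transcript length in the low Malat1 and Neat1 ratios was not tested. Rn45s, the ribosomal RNA precursor, also differed between libraries, with 4144 CPM in Twist2 cells at day 5 and 8294 CPM at day 0, against 2312 CPM in GFP cells at day 5 and 2088 CPM at day 0.

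**Figure D3:**
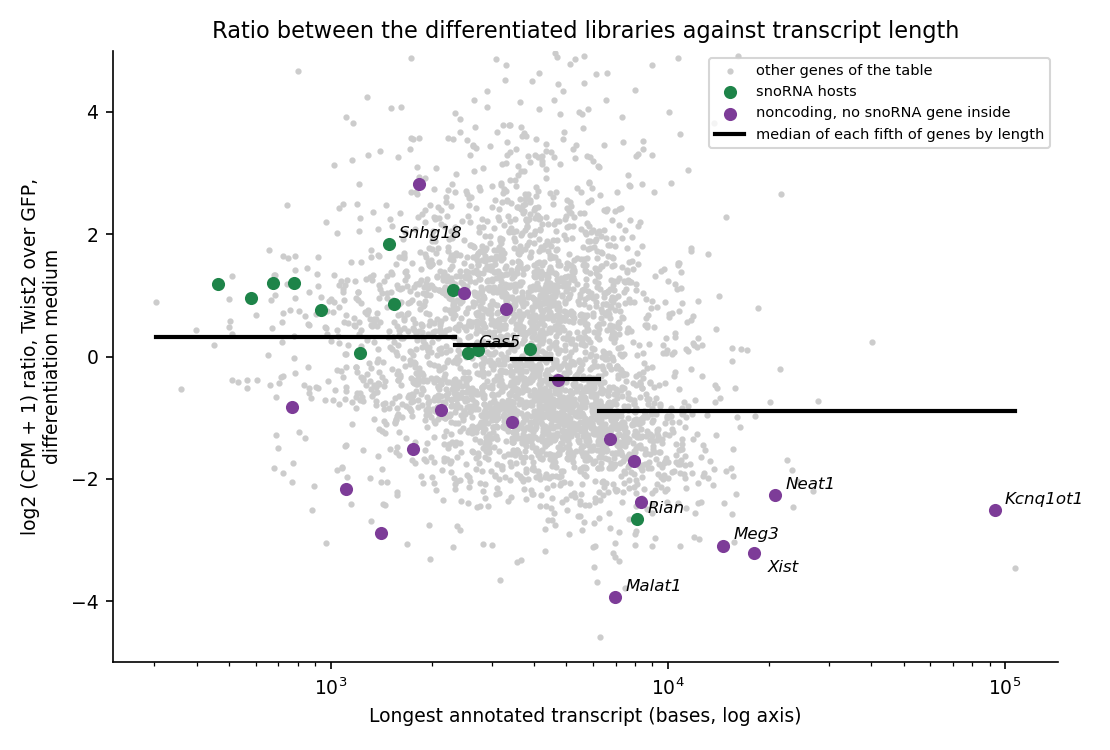
Log2 ratio of CPM + 1, Twist2 over GFP cells at day 5 (vertical axis), against the length of the longest annotated transcript in bases (horizontal log axis), 1 point per gene; 20 of 3426 genes lie outside the plotted range. Black lines are the medians of 5 length groups, from 0.32 in the shortest to -0.89 in the longest, and Malat1 lies at -3.93 below nearly all genes of its length.

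The 7 snoRNA hosts are shorter, with longest transcripts of 581 (Snhg3) to 2728 bases (Snhg1). Their annotated start sites are shown because a pyrimidine run there is the feature that snoRNA hosts are known to share with ribosomal protein genes. Each line holds 20 bases before and 20 after a RefSeq start (GRCm38.p6), and capitals mark a C followed by 4 or more letters that are each C or T. Gas5 is chr1:161035146-161035185 on the plus strand, Snhg1 chr19:8723467-8723506 on the plus strand, Snhg3 chr4:132353667-132353706 on the minus strand and Snhg5 chr9:88522878-88522917 on the minus strand. Snhg8 is chr3:123508317-123508356 on the minus strand, Snhg12 chr4:132308658-132308697 on the plus strand and Snhg18 chr15:32244643-32244682 on the minus strand.
Gas5: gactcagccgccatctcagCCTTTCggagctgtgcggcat
Snhg1: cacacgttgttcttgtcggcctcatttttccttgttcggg
Snhg3: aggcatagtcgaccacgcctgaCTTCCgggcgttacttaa
Snhg5: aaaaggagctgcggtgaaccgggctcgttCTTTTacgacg
Snhg8: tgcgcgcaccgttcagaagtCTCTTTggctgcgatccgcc
Snhg12: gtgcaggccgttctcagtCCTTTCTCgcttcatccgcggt
Snhg18: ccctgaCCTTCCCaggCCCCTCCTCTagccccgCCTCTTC

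The RefSeq table matched 8 of the 9 RNAs, with 9 starts in all. A run was found at 6 of these 9 starts (66.7%), on the gene's strand, against 45.9% of 32851 promoters in the same window and 45.1% of the 3905 promoters of genes in the deposited table. The other strand held a run in 49.9% of all promoters. Of 21 promoters of genes in the table with ribosomal protein (Rpl or Rps) names, 66.7% held one. That name search also matches kinase genes such as Rps6kb1, so the share may not be that of ribosomal protein genes alone. Snhg1, Malat1 and a second Gas5 start held none. CATATG and CATCTG, E-box sequences that basic helix-loop-helix factors can bind, were searched on both strands in 300 bases, from 250 before to 50 after the start. CATATG, found in 3.91% of all promoters, occurred at none of the 9 starts, and CATCTG, found in 17.2%, occurred at 1 Gas5 start. These matches describe the letters of the windows and nothing more.

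Gas5 (chr1:161034422-161038539, plus strand), named for its accumulation in growth-arrested cells, holds 10 annotated snoRNA genes and overlaps Zbtb37 on the other strand. It had 86.7 CPM in Twist2 cells at day 5 and 208 CPM at day 0, against 83.1 CPM in GFP cells at day 5 and 233 CPM at day 0. Its level was lower at day 5 than at day 0 with either virus, by a log2 ratio of -1.25 (-1.37 to -1.15) in Twist2 cells and -1.48 (-1.61 to -1.37) in GFP cells. At day 5 the log2 ratio of Twist2 to GFP cells was 0.06 (-0.07 to 0.20). Snhg1 (chr19:8723475-8726443, plus strand), with 8 snoRNA genes, had 45.2 CPM in Twist2 cells at day 5 and 110 CPM at day 0, against 41.8 CPM in GFP cells at day 5 and 113 CPM at day 0. Its responses were -1.26 (-1.43 to -1.14) in Twist2 cells and -1.41 (-1.60 to -1.26) in GFP cells. Snhg5 (chr9:88521050-88522929, minus strand), with 2 snoRNA genes, had 20.8 CPM in Twist2 cells at day 5 and 44.4 CPM at day 0, against 20.03 CPM in GFP cells at day 5 and 47.6 CPM at day 0. Its responses were -1.06 (-1.32 to -0.87) in Twist2 cells and -1.21 (-1.5 to -1.0) in GFP cells. In these 3 hosts both day 5 libraries lay below both day 0 libraries, and with library totals the day 5 libraries differed from each other by less than counting error (log2 ratios of Twist2 to GFP cells of 0.11 for Snhg1 and 0.05 for Snhg5). The sign of that small difference changed with scaling.

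Snhg3, Snhg8 and Snhg12 were lower at day 5 in GFP cells by more than in Twist2 cells. Against GFP cells at day 0, Twist2 cells at day 5 had log2 ratios of -0.90, -0.31 and -0.67 in this order. Twist2 cells at day 0 had -0.20, -0.22 and -0.24. The deposited table keeps only genes at least 2-fold from GFP cells at day 0, so these hosts were listed only through their change in GFP cells. That change of at least 2-fold was thus given in advance. Snhg8 (chr3:123507552-123508404, minus strand), host of Snora24, had 36.7 CPM in Twist2 cells at day 5 and 39.2 CPM at day 0, against 15.4 CPM in GFP cells at day 5 and 45.9 CPM at day 0. Its response was -0.09 (-0.29 to 0.10) in Twist2 cells and -1.52 (-1.86 to -1.30) in GFP cells, so that only the GFP library at day 5 stood apart. Snhg3 (chr4:132348014-132353686, minus strand), with 2 snoRNA genes, had 20.5 CPM in Twist2 cells at day 5 and 33.9 CPM at day 0, against 10.07 CPM in GFP cells at day 5 and 39.1 CPM at day 0. Its response was -0.70 (-0.96 to -0.49) in Twist2 cells and -1.86 (-2.30 to -1.63) in GFP cells. Snhg3 overlaps Rcc1 on its own strand, so reads of both may have been divided, and the strand setting of the counting is not given in the sources used here. Snhg12 (chr4:132308623-132311024, plus strand), 36989 bp away with 5 snoRNA genes, had 16.7 CPM in Twist2 cells at day 5 and 22.9 CPM at day 0, against 8.77 CPM in GFP cells at day 5 and 27.2 CPM at day 0. Its response was -0.43 (-0.72 to -0.18) in Twist2 cells and -1.53 (-2.01 to -1.27) in GFP cells. At day 5 the log2 ratio of Twist2 to GFP cells was 1.20 (0.98 to 1.54) for Snhg8, 0.96 (0.68 to 1.39) for Snhg3 and 0.86 (0.56 to 1.32) for Snhg12.

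Snhg18 (chr15:32240565-32244662, minus strand), host of Snord123, was the one host of the 7 with a higher level at day 5 than at day 0 in Twist2 cells. It had 24.6 CPM in Twist2 cells at day 5 and 14.6 CPM at day 0, against 6.17 CPM in GFP cells at day 5 and 9.03 CPM at day 0. Both Twist2 libraries lay above both GFP libraries. Against GFP cells at day 0, Snhg18 reached 2-fold only in Twist2 cells at day 5 (log2 ratio 1.35). It was therefore listed in the table only through the library where it is high, and that height was given in advance. Its response was 0.71 (0.47 to 1.03) in Twist2 cells and -0.48 (-1.06 to -0.05) in GFP cells, and the ratio of Twist2 to GFP cells was 1.84 (1.58 to 2.43) at day 5 and 0.64 (0.31 to 1.09) at day 0, all on the log2 scale. The GFP response ran from -0.67 to 0.22 over the alternatives, so its direction depended on scaling.

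Ratios of reads within a library, which need no scaling, were also taken between the hosts. Gas5 had 1.92 reads per Snhg1 read in Twist2 cells at day 5 (1.73 to 2.13) and 1.89 at day 0 (1.76 to 2.03), against 1.99 in GFP cells at day 5 (1.76 to 2.25) and 2.06 at day 0 (1.92 to 2.22), and all 4 intervals overlapped. Snhg8 had 0.424 reads per Gas5 read in Twist2 cells at day 5 (0.379 to 0.473) and 0.189 at day 0 (0.170 to 0.209), against 0.185 in GFP cells at day 5 (0.154 to 0.222) and 0.197 at day 0 (0.178 to 0.218). Snhg18 had 0.284 reads per Gas5 read in Twist2 cells at day 5 (0.249 to 0.322) and 0.0705 at day 0 (0.0597 to 0.0827), against 0.0743 in GFP cells at day 5 (0.0558 to 0.0973) and 0.0388 at day 0 (0.0310 to 0.0480). Snhg8 and Snhg18 were thus high relative to Gas5 in the Twist2 library at day 5, the library through which alone Snhg18 was listed.

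Per kilobase of the longest transcript, the order of the RNAs changed in the Twist2 library at day 5. Snhg8 led there with 47.3 CPM per kb (43.1 to 51.9), followed by Snhg3 with 35.4 (31.1 to 40.0), Gas5 with 33.9 (31.9 to 36.0) and Malat1 with 33.8 (32.6 to 35.1), and the last 3 were within counting error of each other. Snhg5 (17.03), Snhg1 (16.6) and Snhg18 (16.5) were likewise not separated, Snhg12 had 10.9, and Neat1 was lowest with 7.18 CPM per kb. In the other libraries Malat1 led, with 189 CPM per kb in Twist2 cells at day 0, 517 in GFP cells at day 5 and 192 in GFP cells at day 0. At day 0 Gas5 came next, with 81.2 CPM per kb in Twist2 cells and 91.02 in GFP cells, and in GFP cells at day 5 Neat1 (34.7) and Gas5 (32.5) followed Malat1.

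Counted together and with library totals, the 9 RNAs leaned lower at day 5 with either virus. Lower or higher in these counts means a change of 2-fold or more in RNAs that reached 10 CPM in at least 1 of the libraries compared. In Twist2 cells 5 of 9 were lower and 0 higher (median log2 ratio -1.06), where 24.5% of 3715 genes were lower and 26.5% higher (median -0.22). In GFP cells 6 of 9 were lower and 1, Malat1, higher (median -1.41), where 40.9% of 3694 genes were lower and 32.6% higher (median -0.38). This lean rested on scaling. When reads outside the table set the scale, 1 of the 7 snoRNA hosts was lower in GFP cells and 1 in Twist2 cells. Since all but 1 of the RNAs reached 10 CPM in the higher library of every comparison, the exception being Snhg18 in the GFP pair, this minimum removed few. The deposited table holds only genes selected for a difference from GFP cells at day 0, which raises these shares.

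At day 0, 0 of 9 differed by at least 2-fold between Twist2 and GFP cells, where 15.8% of 3514 genes did, 5.21% higher and 10.6% lower. At day 5, Snhg8 and Snhg18 were higher and Malat1 and Neat1 lower in Twist2 cells, where 25.4% of 3437 genes were higher and 25.2% lower (median of all -0.19). Neat1 and Snhg18 were listed only through Twist2 cells at day 5, and Snhg8 only through its fall in GFP cells at day 5. The direction of their day 5 ratios was thus given in advance. Set against GFP cells at day 0, Twist2 cells at day 5 had 1 of 9 higher (Snhg18) and 5 lower, where 25.8% of 3756 genes were higher and 32.1% lower. Here the calls of Snhg18 and Neat1 were themselves given in advance. For the difference of the responses, Twist2 minus GFP, 3 of 9 were at least 1 higher on the log2 scale (Snhg3, Snhg8 and Snhg12) and 2 lower (Malat1 and Neat1), where 25.1% of 3649 genes were higher and 12.4% lower. The 3 higher hosts depended on the setting: 1, Snhg8, was left with median-of-ratios factors or a pseudocount of 5 CPM, and 0 when reads outside the table set the scale. All 3 were also listed only through their change in GFP cells. Snhg18, at 1.19, was not counted because of the 10 CPM minimum. The comparisons share libraries, so these counts are not independent of each other.

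The 7 snoRNA hosts of the rule had a median response of -0.70 in Twist2 cells (3 lower) and -1.48 in GFP cells (6 lower). At day 5 all 7 had a log2 ratio of Twist2 to GFP cells above 0 (median 0.86), and 2 were at least 2-fold higher. Snhg3, Snhg8 and Snhg12 were listed only through their fall in GFP cells at day 5. Snhg18 was listed only through its high level in Twist2 cells at day 5. That fall, that height and the direction of the day 5 ratio of these hosts were therefore given in advance. The medians and counts also rested on scaling. When reads outside the table set the scale, the median GFP response was -0.68 with 1 host lower, the median Twist2 response -0.45 with 1 lower, and at day 5 Gas5, Snhg1 and Snhg5 had ratios below 0 and 1 host was higher in Twist2 cells. The number higher at day 5 was 4 with upper-quartile scaling, 3 with median centring or a pseudocount of 0.1 CPM, and 2 with the other alternatives. Listed genes held 47.2% of the reads in Twist2 cells at day 5 and 36.9% at day 0, against 65.1% in GFP cells at day 5 and 39.3% at day 0, and that scaling shifted the median of all genes by 0.78 in the GFP response. Malat1 and Neat1 kept their side of 2-fold under every scaling and pseudocount tried.

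**Figure D4:**
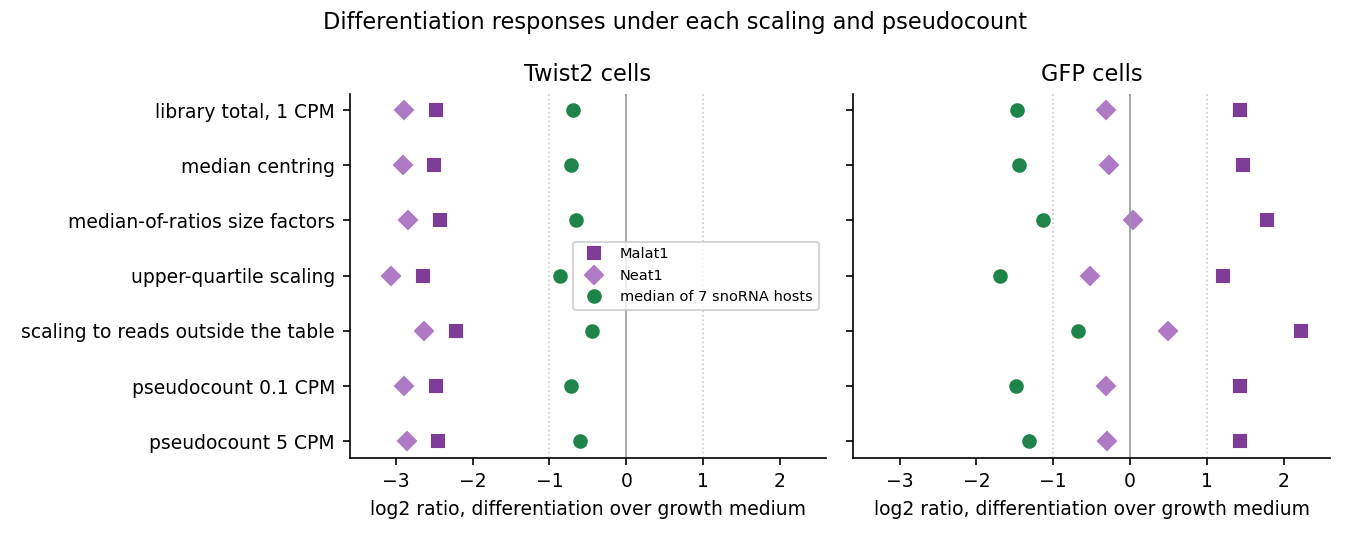
Log2 ratio of day 5 to day 0 (horizontal axis, differentiation over growth medium) of Malat1, Neat1 and the median of the 7 snoRNA hosts under each scaling or pseudocount (rows), in Twist2 cells (left) and GFP cells (right). Dotted lines mark 2-fold. Malat1 lies below -2 in Twist2 cells and above 1 in GFP cells in every row, whereas the GFP median of the hosts moves between the rows and lies at -0.68 with scaling to reads outside the table.

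The 8 other snoRNA hosts in the table were mostly lower at day 5 in GFP cells. They are Snhg15, Snhg16, Snhg17, Zfas1 and Epb41l4aos (listed under older names), 2410006H16Rik, 1110038B12Rik and Rian. Snhg15, Snhg16, Epb41l4aos and 1110038B12Rik were listed only through their fall in GFP cells at day 5. Rian was listed only through its low level in Twist2 cells at day 5. For these hosts that change, and the direction of the day 5 ratio between viruses, were given in advance. In Twist2 cells 3 of 8 were lower at day 5 (median -0.94), where 24.5% of all genes were, and in GFP cells 7 of 8 (median -1.34), where 40.9% were. With reads outside the table as the scale, these counts were 0 and 2, and with median-of-ratios factors 3 and 3. At day 5, 3 were higher in Twist2 than in GFP cells (25.4% of all genes) and 1, Rian, was lower (25.2%), and 0 were higher with reads outside the table as the scale. Zfas1, host of Snord12, had 46.1 CPM in Twist2 cells at day 5 and 101 CPM at day 0, against 21.1 CPM in GFP cells at day 5 and 120 CPM at day 0. Snhg15 had 20.8 CPM in Twist2 cells at day 5 and 15.7 CPM at day 0, against 8.45 CPM in GFP cells at day 5 and 22.5 CPM at day 0. Rian, an imprinted RNA of 8089 bases with many snoRNAs of its own, had 0.890 CPM in Twist2 cells at day 5 and 5.60 CPM at day 0, against 10.9 CPM in GFP cells at day 5 and 11.4 CPM at day 0. The table also held 25 genes with Rpl or Rps names, a list chosen after values were seen. Most are ribosomal protein genes, but Rps6kb1, Rps6ka3, Rps6ka4, Rps6ka5 and Rps6ka6 are kinase genes. In Twist2 cells 0 of the 25 were higher and 4 lower (median -0.88), and in GFP cells 3 were higher and 21 lower (median -1.12). These counts stood against the same shares of all genes lower and 26.5% and 32.6% higher. The 21 became 3 with median-of-ratios factors and 0 with reads outside the table, and the 4 became 14 with upper-quartile scaling and 0 with reads outside the table.

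The 19 noncoding RNAs without a snoRNA gene inside, Malat1 and Neat1 apart, included 10 that were lower and 2 that were higher in Twist2 than in GFP cells at day 5 (median -1.07), where 25.2% of all genes were lower and 25.4% higher (median -0.19). With reads outside the table as the scale 13 were lower and 1 higher, and lower genes in all then numbered 1548 instead of 867. Xist, the RNA of X chromosome inactivation, had 118 CPM in Twist2 cells at day 5 and 992 CPM at day 0, against 1097 CPM in GFP cells at day 5 and 1910 CPM at day 0, a day 5 log2 ratio of -3.21 (-3.30 to -3.14). It overlaps Tsix on the other strand. Meg3, an imprinted nuclear RNA, had 0.566 CPM in Twist2 cells at day 5 and 6.96 CPM at day 0, against 12.3 CPM in GFP cells at day 5 and 10.5 CPM at day 0. The low point for each of these was the Twist2 library at day 5. Xist and Meg3 were listed only through that library, so a low level there was given in advance. Kcnq1ot1, an imprinted RNA that silences neighbouring genes, had a day 5 log2 ratio of -2.51, Oip5os1 -2.38, Dnm3os, host of a microRNA cluster, -1.70 and Tug1 -1.34. Kcnq1ot1 and Tug1 were likewise listed only through their low level in Twist2 cells at day 5. Oip5os1 was listed only through its high level in GFP cells at day 5. For Kcnq1ot1, Tug1 and Oip5os1 the direction of the day 5 ratio was thus given in advance. Kcnq1ot1, Dnm3os and Tug1 overlap genes on the other strand, and without a known strand setting reads of both cannot be told apart. Morrbid stood against them with 19.1 CPM in Twist2 cells at day 5 and 20.0 CPM at day 0, against 1.84 CPM in GFP cells at day 5 and 8.31 CPM at day 0 (day 5 log2 ratio 2.82). Another 3 noncoding RNAs, among them Mir100hg (-1.75), could not be placed in the annotation.

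**Figure D5:**
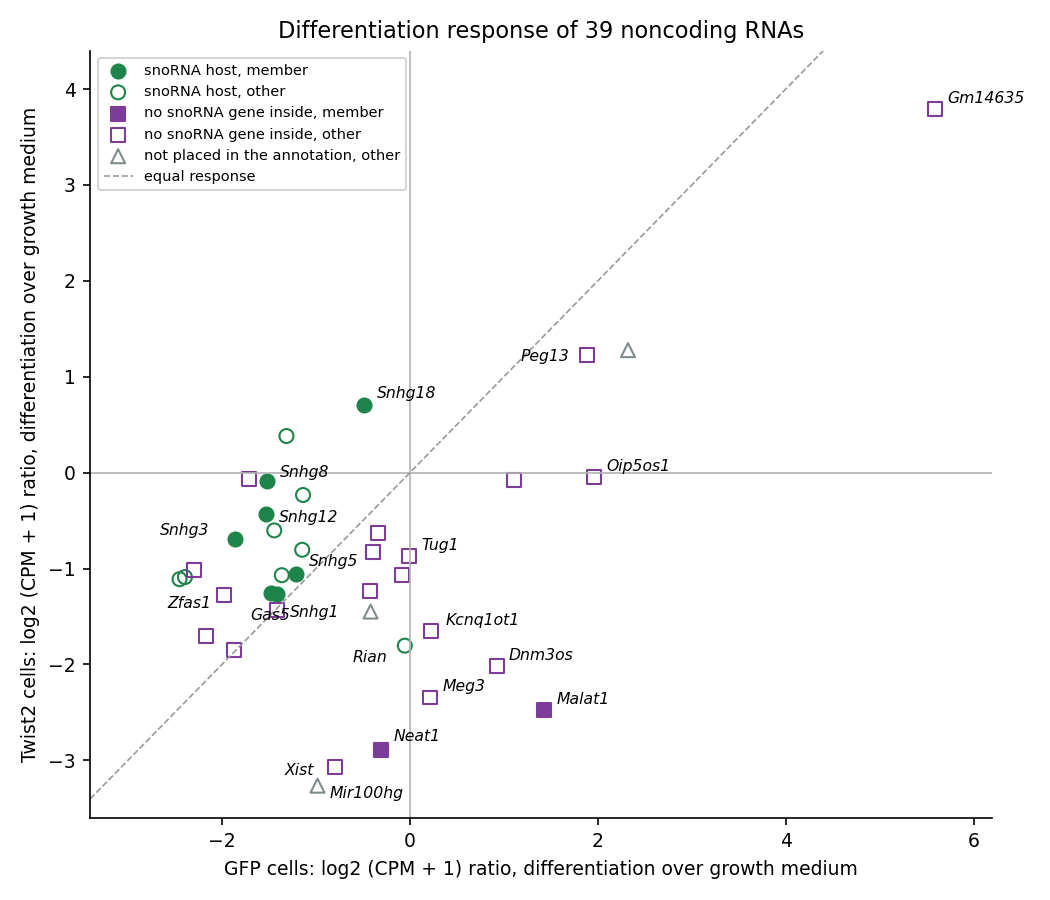
Log2 ratio of CPM + 1, day 5 over day 0, in Twist2 cells (vertical axis) against GFP cells (horizontal axis) for 39 noncoding RNAs; filled symbols are the 9 RNAs of the rule and circles are snoRNA hosts. Malat1 lies at 1.43 in GFP and -2.47 in Twist2 cells, below the dashed line of equal response, and 6 of the 7 filled circles lie left of -1. Gm14635 had 0 reads in Twist2 cells at day 0, so its vertical position depends on the pseudocount.

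The genes whose profile over the 4 libraries was most like that of Malat1 were Meg3, Npr3, Taok1, Gcnt1, Mpp5 and Mob1b. Likeness was the Euclidean distance between centred log2 (CPM + 1) profiles, computed for 3759 genes, and these 6 had distances of 0.877 to 1.08. Npr3, the clearance receptor of natriuretic peptides, had 5.42 CPM in Twist2 cells at day 5 and 29.5 CPM at day 0, against 58.6 CPM in GFP cells at day 5 and 14.4 CPM at day 0. Taok1, a protein kinase, had 71.3 CPM in Twist2 cells at day 5 and 170 CPM at day 0, against 572 CPM in GFP cells at day 5 and 309 CPM at day 0. Neat1 ranked 85 and Xist 95 in this order. Of the 6 genes, 3 stayed among the first 6 with a pseudocount of 0.1 CPM, 4 with 5 CPM and 6 with median-of-ratios scaling. Meg3, with 7 reads in Twist2 cells at day 5, came first only with a pseudocount of 1 CPM. The first gene was Npr3 with 0.1 CPM and Taok1 with 5 CPM.

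Protein partners of these RNAs were read from lists. Of 39 genes of nuclear speckles and splicing, where Malat1 resides, 18 were in the table. In Twist2 cells 2 were higher and 6 lower at day 5 than at day 0, where 26.5% of all genes were higher and 24.5% lower. In GFP cells 2 were higher and 5 lower, where 32.6% were higher and 40.9% lower, so the share of lower genes in the list was not above that of all genes. At day 5, 8 were lower and 2 higher in Twist2 than in GFP cells (median -0.98), where 25.2% of all genes were lower and 25.4% higher. The 8 became 4 with upper-quartile scaling and 12 with reads outside the table, and the 6 lower in the Twist2 response became 11 and 4 in the same settings. Rbfox1, a splicing regulator of muscle and neurons, had 19.3 CPM in Twist2 cells at day 5 and 1.08 CPM at day 0, against 76.8 CPM in GFP cells at day 5 and 3.28 CPM at day 0. The splicing factor Srsf9 had a day 5 log2 ratio of 1.65, Celf2 -1.59 and Mbnl1, which promotes adult splicing patterns in muscle, -1.57. Mbnl1 was listed only through its low level in Twist2 cells at day 5, and Srsf9 only through its fall in GFP cells. For Mbnl1 and Srsf9 the direction of the day 5 ratio was thus given in advance. Srpk3, a muscle kinase of splicing factors, was higher at day 5 with either virus, with 65.6 CPM in Twist2 cells at day 5 and 1.08 CPM at day 0, against 149 CPM in GFP cells at day 5 and 20.2 CPM at day 0. Mbnl3 was lower with either virus, with log2 ratios of -3.20 in Twist2 and -2.94 in GFP cells.

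Of 16 paraspeckle proteins, the partners of Neat1, 9 were in the table. At day 5, 4 were lower than at day 0 in Twist2 cells, where 24.5% of all genes were, and 6 in GFP cells (median -1.14), where 40.9% were, with 0 higher in either. When reads outside the table set the scale, 0 were lower in either, and with upper-quartile scaling 7 were lower in Twist2 cells. Rbm14 was lowest in both, at -1.17 in Twist2 and -1.60 in GFP cells. Between viruses at day 5, Cpsf6 (-1.10) and Matr3 (-1.08) were lower in Twist2 cells, where 25.2% of all genes were. Neither reached 2-fold with upper-quartile scaling, while Nudt21 (0.81) and Rbm14 (0.70) differed by less than 2-fold. Cpsf6 and Matr3 were listed only through their low level in Twist2 cells at day 5. The 6 genes lower in GFP cells, Nudt21 and Rbm14 among them, were listed only through that fall. The fall in GFP cells and the direction of these day 5 ratios were thus given in advance. The log2 ratio of Neat1 in the same comparison, -2.26, lay below those of all 9.

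Of 21 genes of nonsense-mediated decay and of snoRNA-protein complexes, which act on the host RNAs and their snoRNAs, 9 were in the table. In Twist2 cells 3 were lower at day 5 than at day 0, where 24.5% of all genes were. In GFP cells 2 were lower and 1 higher, where 40.9% were lower and 32.6% higher. With library totals these counts were near or below the shares of all genes. The 3 became 6 with upper-quartile scaling and 1 with reads outside the table. At day 5 the decay kinase Smg1 had 69.3 CPM in Twist2 cells and 270.2 CPM in GFP cells (log2 ratio -1.95). The decay factor Upf2 (-1.57) and the decapping enzyme Dcp2 (-1.29) were lower in Twist2 cells as well. Fbl, the methyltransferase of box C/D snoRNAs, was higher in Twist2 cells, with 15.8 CPM in Twist2 cells and 7.15 CPM in GFP cells at day 5 (log2 ratio 1.04). That difference was under 2-fold with median-of-ratios factors, reads outside the table or a pseudocount of 5 CPM. Thus 3 of the 9 were lower and 1 higher between viruses at day 5, where 25.2% of all genes were lower and 25.4% higher. Smg1, Upf2 and Dcp2 were listed only through their low level in Twist2 cells at day 5. Fbl was listed only through its fall in GFP cells at day 5. The direction of these day 5 ratios was therefore given in advance.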

How the data were processed

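Trizol-extracted total RNA of the 4 cultures went into Illumina libraries, per the labels' protocols. TopHat2 2.0.0, DESeq2 1.6.3 and GRCm38 (mm10) appear without a role in the submitters' processing notes. How reads were counted, with which annotation and strand setting, is not stated there. The table the authors deposited lists 3760 genes with CPM, a gene's reads scaled to the library total, 3 columns of log2 ratios against GFP cells at day 0, and a flag equal to 1 in every row. The authors' log2 ratios matched log2 of CPM + 1 within 1.3e-11 and were used only for that check. From the values, each listed gene reaches 10 CPM in 2 or more libraries and is 2-fold or more from GFP cells at day 0 in 1 or more of these columns. Genes outside the table were not analysed here.

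All CPM values were whole multiples of 1 read within 0.01 reads, which gave the reads and the library totals. With 1 library per group, the replicated tests foreseen for count data were not run. Ratios use a pseudocount of 1 CPM, which understates those of low genes. The 95% intervals are exact conditional binomial (Clopper-Pearson) intervals of the reads, and those of single levels are Poisson intervals. Both cover counting error only and no variation between libraries. PCR copies were not marked by molecular identifiers, which can make these intervals too narrow. The calculation was tested on simulated counts of 3760 genes, where 100% of genes changed 3-fold were recovered. The changed genes had a mean of at least 10 CPM, and the counts held no variation between libraries. The simulation therefore checks the arithmetic and says nothing on replicates. Alternatives were pseudocounts of 0.1 and 5 CPM, 4 other scalings and no minimum of 10 CPM. Gene symbols were matched to GENCODE M21 (3747 of 3760 placed) and RefSeq (9 not matched). The members and lists were chosen with earlier results of these data known. Named beyond the members are all other listed noncoding RNAs, as counts or by value, genes of each partner list that are among the 4 with the largest ratios in a comparison, and the 6 genes most like Malat1. Python 3.11.15, numpy 2.4.6, pandas 2.3.3, scipy 1.17.1 and matplotlib 3.10.9 were used.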

Additional observations from a re-analysis of the deposited data

Results flagged for a closer look

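Malat1 moved in opposite directions in the 2 differentiation responses, with a log2 ratio of day 5 to day 0 of -2.47 in Twist2 cells and 1.43 in GFP cells. Snhg18 did so as well, at 0.71 in Twist2 cells and -0.48 in GFP cells, where the GFP value changed direction with scaling. Snhg18 was listed only through its high level in Twist2 cells at day 5. With 1 library per group, the difference between the responses was not tested for either RNA.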

How the results depend on the processing

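Each value was recomputed with 2 other pseudocounts and 4 other scalings, and counts of genes also without the 10 CPM minimum. The log2 ratios of Malat1 kept direction and side of 2-fold, except that the direction at day 0 varied. With scaling to reads outside the table they were -2.22 (Twist2 response), 2.23 (GFP response), -0.081 (Twist2 over GFP at day 0), -4.53 (at day 5), -2.30 (Twist2 at day 5 over GFP at day 0) and -4.45 (difference of responses). With median-of-ratios factors they were 1.78 (GFP response), 0.22 (day 0), -3.99 (day 5), -2.21 (Twist2 at day 5 over GFP at day 0) and -4.21 (difference). With upper-quartile scaling they were -2.65 (Twist2 response), 1.21 (GFP response), 0.15 (day 0) and -3.70 (day 5), and with median centring 1.47 (GFP response), 0.074 (day 0) and -2.42 (Twist2 at day 5 over GFP at day 0). Under both pseudocounts they moved by less than the counting interval.

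Counts of genes at least 2-fold different also moved with scaling. With reads outside the table lower genes numbered 604 in the Twist2 response (911 with library totals), 646 in the GFP response (1511), 1548 at day 5 (867) and 1013 in the difference (454), and higher genes 497 at day 5 (873) and 516 in the difference (916). With median-of-ratios factors the lower genes were 968 in the GFP response, 241 at day 0 (372), 777 for Twist2 at day 5 over GFP at day 0 (1206) and 751 in the difference. The share of 2-fold differences on the higher side in the GFP response was 44.4% with library totals, 57.8% with median-of-ratios factors and 69.8% with reads outside the table. The share with library totals and with reads outside the table was 51.9% and 66.8% in the Twist2 response, 50.2% and 24.3% at day 5, 44.5% and 55.7% for Twist2 at day 5 over GFP at day 0, and 66.9% and 33.7% in the difference, where median-of-ratios factors gave 60.5% for Twist2 at day 5 over GFP at day 0 and 47.0% in the difference. At day 5 it was 61.1% with upper-quartile scaling, and at day 0 it was 33.0% with library totals, 53.0% with median-of-ratios factors and 46.4% with upper-quartile scaling. Gas5, Snhg1 and Snhg5 changed direction between viruses at day 5 with scaling. The cause of these shifts was not tested. No paired analysis was possible because each group has 1 library.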
